A study of Mus musculus with 12 samples.

Results

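The machinery of endoplasmic reticulum (ER)-associated degradation was examined through 10 genes: Derl1, Derl2, Derl3, Sel1l, Syvn1, Herpud1, Edem1, Edem2, Os9 and Selenos. The genes were chosen by name, with earlier results of these data known. Every probe set on the array that mapped to only 1 of their symbols was taken, of 18193 genes that had such a probe set. This gave 25 probe sets, of which 23 passed the filter on dim signal and read all 10 genes. The other two, 1 of 5 for Sel1l and 1 of 2 for Edem2, passed the filter's signal limit on 2 and 0 of the 12 arrays and were not tested. The muscles were the soleus, which is rich in slow fibres, and the tibialis anterior (TA), which is mostly fast, from mice 4 weeks old. The groups were soleus of H6pd knockout mice (KO soleus), soleus of wild-type mice (WT soleus), KO TA and WT TA, with 3 arrays each that the labels call biological replicates. H6pd makes NADPH inside the ER. The labels do not give the strain, the sex, the deleted part of the gene, or whether muscles of equal number came from the same mouse, and the design text states that no overt myopathy was seen on histology at this age.

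Proteins that fail to fold in the ER are recognised in its lumen, passed through its membrane into the cytosol, tagged with ubiquitin and destroyed by the proteasome. The mannosidase-like proteins Edem1 and Edem2 trim the sugar chain of a misfolded glycoprotein, and the lectin Os9 binds the trimmed chain. Sel1l is the membrane scaffold that hands the substrate to Syvn1 (also called HRD1), the ubiquitin ligase. The derlins Derl1, Derl2 and Derl3 are membrane proteins of the exit path, Herpud1 is a membrane protein with a ubiquitin-like domain that joins the ligase complex, and Selenos is a selenoprotein that helps bring the p97 ATPase to the membrane. Several of these genes are known targets of the unfolded protein response, the signalling that answers misfolded protein in the ER through the transcription factors ATF6, XBP1 and ATF4.

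Because that response is known to act on short promoter elements, the 250 bases before the annotated start were searched in the RefSeq promoters of build GRCm38.p6. Of the 10 genes, 9 had an entry there, with 10 promoters in all, since Derl2 had 2; Derl1 is named only. Both strands were searched for 4 motifs: the ER stress element ERSE, which is CCAAT followed after 9 bases by CCACG, the element ERSE-II, which is ATTGG followed after 1 base by CCACG, the XBP1 core TGACGTGG, and the ATF4 site TGATGCAA. The 3 promoters that held any match are shown, with the fixed letters of each match in capitals, all on the plus strand, at chr8:94386179-94386428 for Herpud1, chr10:75893148-75893397 for Derl3 and chr19:6046326-6046575 for Syvn1.
Herpud1: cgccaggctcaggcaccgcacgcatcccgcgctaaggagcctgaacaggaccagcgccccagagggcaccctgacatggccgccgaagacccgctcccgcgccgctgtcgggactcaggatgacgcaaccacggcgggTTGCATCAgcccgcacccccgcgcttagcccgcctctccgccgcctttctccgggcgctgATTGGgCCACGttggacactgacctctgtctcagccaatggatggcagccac
Derl3: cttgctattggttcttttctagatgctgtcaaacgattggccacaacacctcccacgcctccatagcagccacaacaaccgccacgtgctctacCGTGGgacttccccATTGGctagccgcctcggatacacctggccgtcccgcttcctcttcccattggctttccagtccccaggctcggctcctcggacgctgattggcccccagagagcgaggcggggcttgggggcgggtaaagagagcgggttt
Syvn1: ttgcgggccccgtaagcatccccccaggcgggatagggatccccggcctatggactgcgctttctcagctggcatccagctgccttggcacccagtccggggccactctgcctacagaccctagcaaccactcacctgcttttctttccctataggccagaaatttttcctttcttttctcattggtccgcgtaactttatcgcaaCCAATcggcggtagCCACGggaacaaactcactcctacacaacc
Herpud1 held ERSE-II from -52 to -42 relative to the start, and the ATF4 site on the opposite strand from -112 to -105, without overlap between them. The Herpud1 window also ended in CCAAT followed after 9 bases by CCAC. It stopped before the last letter of ERSE, so the search could neither find nor exclude a match across the start. Derl3 held ERSE on the opposite strand from -156 to -138. Syvn1 held ERSE on the same strand from -44 to -26. Among all 32851 promoters of the table, windows of this length held ERSE in 0.113%, ERSE-II in 0.0304%, the XBP1 core in 0.563% and the ATF4 site in 0.791%. A match describes the letters of the window and not a bound site, and the promoters of Derl2, Sel1l, Edem1, Edem2, Os9 and Selenos had no match to these 4 motifs in it.

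Values are log2 signals after quantile normalization. A group mean under log2 4 is called near background. Genes were compared with limma over 13009 genes, each read by its brightest probe set, and an adjusted p is the Benjamini-Hochberg value over all of them. The labelled muscles were told apart by slow-fibre markers, whose summed unlogged signal was 308198 to 365761.8 in the 6 soleus arrays and 1402.8 to 7025.4 in the 6 TA arrays. H6pd itself had 4.90 ± 1.04 in KO soleus and 6.27 ± 0.78 in WT soleus (SD, n = 3 each), a difference of -1.36 (adjusted p = 0.577). TA arrays labelled KO had 6.96 ± 0.50 and WT TA arrays 6.85 ± 0.93, which differ by 0.11 (adjusted p = 0.966), so this signal did not check the genotype labels. The arrays numbered 3 of all 4 groups stood apart from the rest on the second principal component, at -33.9 to -23.8 against 5.82 to 21.9, and each group held 1 of them.

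In TA, all 10 genes had a higher mean in KO than in WT, and Derl1 was the only member past the test. Derl1 rose 1.70-fold (log2 difference 0.77, SE 0.16, n = 3 per group, adjusted p = 0.0360). The other 9 differences were between 0.29 for Edem1 and 1.98 for Derl3 and did not pass. Over all genes, 2.83% passed in either direction and 1.42% were higher in KO, against 1 of the 10 members. The calls over all genes were 185 higher and 183 lower in KO, and 293 higher and 117 lower when arrays were scaled by median centring instead. The KO and WT values did not overlap for 8 members, higher in KO in each case, with a background of 10.7% of all genes. An unadjusted p under 0.05 with a higher mean in KO was found for 5 members, with a background of 7.95%. The median difference was 0.67 over the 10 members and -0.0050 over all genes, of which 48.6% were positive. Derl3 passed the signal filter through the 3 KO TA arrays alone. Without it, 1 of 9 passed the test, 7 of 9 did not overlap, 4 of 9 had an unadjusted p under 0.05, and the median was 0.66.

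In soleus no member passed the test. The unadjusted p was under 0.05 for Derl1 and Selenos, and the difference was positive for 9 of the 10 members, between -0.0020 for Derl3 and 0.68 for Selenos. Over all genes, 0.0307% passed in soleus, so that few calls of any kind were made there. KO values lay above WT values without overlap for Derl1 and Derl2, with a background of 5.88%. An unadjusted p under 0.05 with a higher mean in KO had a background of 4.3%. The median difference was 0.23 over the members and 0.0023 over all genes, of which 51.1% were positive. That median was -0.0040 without KO soleus replicate 3.

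**Figure D1:**
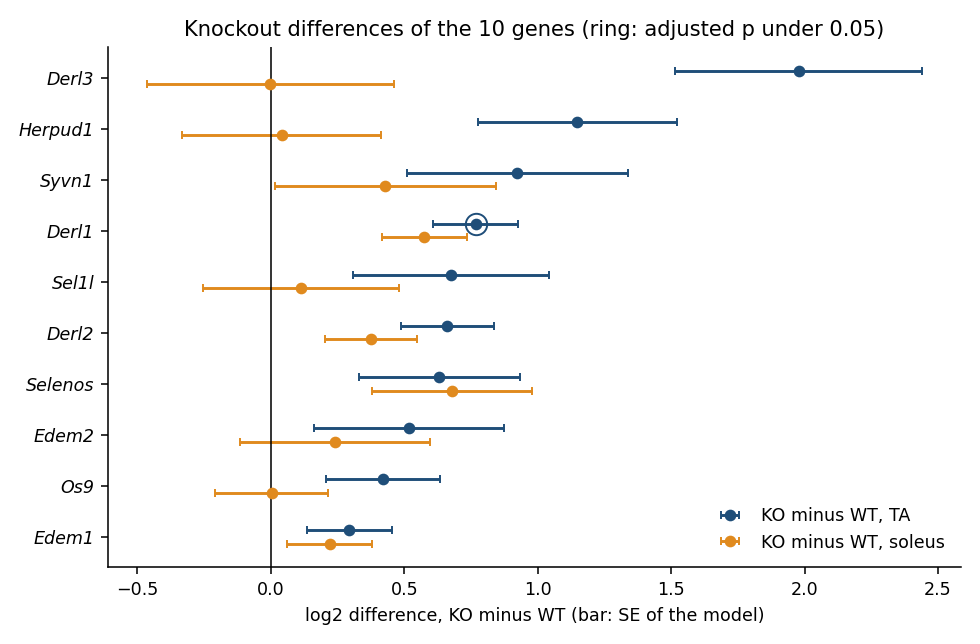
Log2 difference, KO minus WT, of each of the 10 genes in TA (blue) and soleus (orange), read by the brightest probe set, with the SE of the model as the bar and a ring where the adjusted p was under 0.05. The TA differences run from 0.29 for Edem1 to 1.98 for Derl3, and the ring marks Derl1 in TA.

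Among the derlins, the exit path of the membrane, Derl1 had 10.78, 10.89 and 10.72 in the KO TA replicates 1, 2 and 3, against 9.995, 10.06 and 10.02 in WT TA. The groups were wide apart, with every KO array above every WT array and little spread within either. In soleus Derl1 had 10.60, 10.94 and 11.06 in KO and 10.48, 9.93 and 10.47 in WT, again without overlap, and differed by 0.58 (SE 0.16, adjusted p = 0.292). Ordered by level on the brightest probe set, Derl1 averaged 10.87 in KO soleus, 10.79 in KO TA, 10.29 in WT soleus and 10.03 in WT TA. The neighbours KO soleus and KO TA differed by 0.08 (adjusted p = 0.840), and WT soleus and WT TA by 0.27 (adjusted p = 0.312). The order of the KO muscles was the opposite on the other 3 Derl1 probe sets, which gave soleus minus TA differences of -1.06, -0.55 and -0.23 in KO. Of these, 1415693_at (-0.55) passed over all probe sets (adjusted p = 0.0459), beside 6.6% of all probe sets. The TA call was lost on leaving out any TA array. Leaving out any 1 of the 6 TA arrays gave differences of 0.72 to 0.81 with adjusted p of 0.0669 to 0.117, the highest without KO TA replicate 2 and the lowest without KO TA replicate 1; it was 0.0922 without KO TA replicate 3 and 0.0997, 0.0828 and 0.0822 without WT TA replicates 1, 2 and 3.

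Derl2, a derlin that associates with Sel1l and Syvn1, had 9.19, 9.56 and 9.03 in KO TA and 8.82, 8.62 and 8.35 in WT TA. All 3 KO arrays were above all 3 WT arrays, and the difference of 0.66 (SE 0.17, adjusted p = 0.0747) did not pass. In soleus Derl2 had 8.95, 9.35 and 9.22 in KO, against 8.93, 8.69 and 8.77 in WT, and differed by 0.38 (SE 0.17, adjusted p = 0.581). The lowest KO soleus array lay just above the highest WT soleus array.

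Derl3, known from secretory tissue and as a target of the unfolded protein response, averaged above log2 4 in KO TA and near background in the other 3 groups. It had 3.66, 6.00 and 3.99 in KO TA, against 2.59, 2.56 and 2.56 in WT TA. In soleus the 6 values lay between 2.57 and 2.59. KO TA replicate 2 stood far above the other KO TA arrays. KO TA replicates 1 and 3 were themselves under log2 4. The TA difference of 1.98 (SE 0.46, adjusted p = 0.0544) missed the threshold and depends on the floor of the table: it was 0.93 (adjusted p = 0.141) with a pseudocount of 16. Derl3 passed the threshold without KO TA replicate 2 (1.25, adjusted p = 0.000223), without KO TA replicate 1 (2.42, adjusted p = 0.0240) and with the replicate number as a block (adjusted p = 0.0387). The filter admitted Derl3 through KO TA alone, the WT TA values lay at the floor with an SD of 0.0131, and none of these p-values is support for a difference.

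Of the ligase complex, Herpud1 had the largest TA difference on the brightest probe sets, although with the mean of probe sets Sel1l, at 1.28, was above Herpud1, at 1.08. Herpud1 had 10.71, 11.87 and 11.21 in KO TA and 9.998, 10.14 and 10.21 in WT TA. The KO arrays were all higher and more spread than the WT arrays, with replicate 2 the highest. The difference was 1.15 (SE 0.37, adjusted p = 0.139). In soleus Herpud1 had 9.24, 10.16 and 10.86 in KO, a range of more than a log2 unit around the WT values of 10.01, 9.99 and 10.13. The difference there was 0.04 (SE 0.37, adjusted p = 0.999), with a 95% interval of -0.79 to 0.87.

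Syvn1, the ubiquitin ligase, had 8.54, 9.41 and 8.88 in KO TA and 7.90, 8.04 and 8.12 in WT TA, a difference of 0.92 (SE 0.41, adjusted p = 0.292). The groups did not overlap. In soleus it had 7.80, 7.85 and 9.52 in KO and 7.80, 7.80 and 8.27 in WT, so that KO replicate 3 stood alone above the other 5 arrays. Without that array the soleus difference of 0.43 became -0.14.

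Sel1l, its scaffold, had 9.17, 9.36 and 9.66 in KO TA and 8.57, 8.62 and 8.97 in WT TA, again without overlap (difference 0.67, SE 0.37, adjusted p = 0.398). In soleus it had 8.39, 8.43 and 9.73 in KO, against 8.35, 8.51 and 9.34 in WT. There the arrays numbered 3 were the highest of either genotype, and the difference was 0.11 (SE 0.37, adjusted p = 0.999).

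Selenos, the p97 recruiter, had 10.54, 10.79 and 10.21 in KO TA and 9.94, 9.96 and 9.75 in WT TA (difference 0.63, SE 0.30, adjusted p = 0.329). In soleus it had 10.28, 11.02 and 11.42 in KO, against 10.19, 9.78 and 10.71 in WT (difference 0.68, SE 0.30, adjusted p = 0.564). The soleus groups overlapped and the TA groups did not. On the brightest probe sets, Selenos was the only member whose soleus difference was above its TA difference, by a margin within the error of either. Its other probe sets were split, with 0.92 in soleus and 0.28 in TA on 1435735_x_at and 0.75 and 1.34 on 1452095_a_at. Dimmer probe sets of Edem1 (0.45 in soleus, 0.28 in TA) and Derl2 (0.47 and 0.46) also had the higher value in soleus.

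The recognition proteins of the lumen had the smallest TA differences on the brightest probe sets, although dimmer probe sets of Syvn1 (0.42) and Selenos (0.28) lay as low. Edem1 had 7.72, 7.70 and 7.64 in KO TA and 7.47, 7.48 and 7.23 in WT TA, a narrow separation without overlap (difference 0.29, SE 0.16, adjusted p = 0.392). Its soleus values were 8.18, 7.61 and 7.75 in KO and 7.73, 7.66 and 7.48 in WT (difference 0.22). KO soleus replicate 1 was the highest of the 12 arrays for Edem1.

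Edem2, the mannosidase that begins the trimming, had 6.09, 5.71 and 6.81 in KO TA and 5.76, 5.49 and 5.80 in WT TA, with overlap (difference 0.52, SE 0.36, adjusted p = 0.517). Its soleus values were 5.26, 5.53 and 6.59 in KO and 5.35, 5.52 and 5.79 in WT (difference 0.24), where KO replicate 3 was again apart. Os9 had 6.44, 6.82 and 6.56 in KO TA and 5.71, 6.56 and 6.29 in WT TA, also overlapping (difference 0.42, SE 0.21, adjusted p = 0.359). Its soleus values, 6.26, 6.45 and 6.37 in KO and 6.23, 6.33 and 6.51 in WT, were within the same narrow range (difference 0.0032, 95% interval -0.47 to 0.48).

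**Figure D2:**
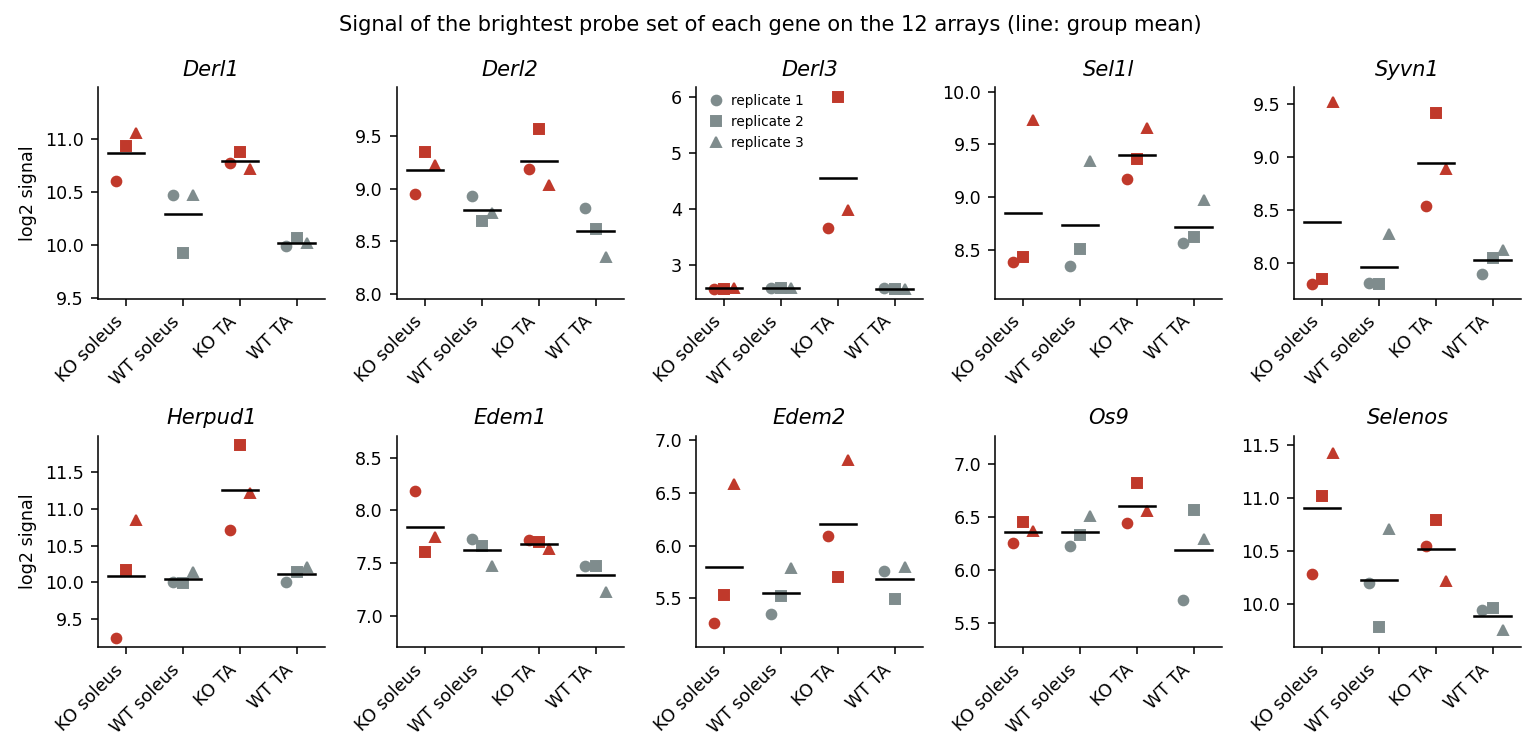
Log2 signal of the brightest probe set of each of the 10 genes on the 12 arrays, KO in red and WT in grey, with the marker shape giving the replicate number and the line the group mean; each panel has its own axis. Derl1 in TA shows 3 KO arrays between 10.72 and 10.89 above 3 WT arrays between 9.995 and 10.06, and Derl3 is above its floor in KO TA alone.

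Whether the knockout acted otherwise in TA than in soleus was tested as the difference of the 2 effects, and no member passed. Over all genes 0.0384% passed this test. The difference of effects, TA minus soleus, was positive for 9 of 10 members with a median of 0.35. Over all genes it was positive for 48.5%, with a median of -0.0075. Without Derl3, 8 of 9 members were positive and the median was 0.29. On the brightest probe sets the difference of effects was 1.98 for Derl3, whose other 3 groups lay at the floor (SE 0.65, adjusted p = 0.719). Herpud1 had 1.11 (SE 0.53, 95% interval -0.06 to 2.28, adjusted p = 0.863), and the other 8 lay between -0.05 and 0.56. The 3 dimmer tested probe sets of Sel1l gave 1.18, 1.52 and 1.40 (adjusted p = 0.947, 0.775 and 0.947 over all probe sets). With the mean of probe sets Sel1l had 1.16 and Herpud1 0.94. Over the genes other than Derl3, Herpud1 and Sel1l, single probe sets ran from -0.64 for Selenos to 0.95 for Derl1.

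The muscles themselves were compared within each genotype. In KO none of the 9 members other than Derl3 passed the test, beside 8.96% of all genes. Derl3 gave a log2 difference of -1.97 (SE 0.46, adjusted p = 0.0278; -0.93 with adjusted p = 0.0924 at a pseudocount of 16), but its soleus arrays lay at the floor and the filter admitted it through the KO TA arrays, so that its direction was fixed by the filter and the p is no support. It fell short of the threshold without KO soleus replicate 1, 2 or 3 (adjusted p = 0.0860, 0.0688 and 0.0584). Herpud1 was next, at 10.08 ± 0.81 in KO soleus and 11.26 ± 0.58 in KO TA (difference -1.18, SE 0.37, adjusted p = 0.0819; 0.0354 with the replicate number as a block). Without KO soleus replicate 3, Herpud1 (-1.56, adjusted p = 0.0229) and Syvn1 (-1.12, adjusted p = 0.0268) passed. In WT no member passed, beside 10.7% of all genes, and the 10 differences lay between -0.13 for Edem2 and 0.34 for Selenos.

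The other probe sets of each gene gave the same sign in TA. All 23 tested probe sets had a positive KO minus WT difference in TA, between 0.28 and 1.98 with a median of 0.77, and 18 had no overlap, against 10.3% of all probe sets. Probe sets of 1 gene read the same RNA and are not independent. When all 22648 probe sets were tested, 3 members' probe sets passed in TA, all of Derl1, beside 2.02% of all probe sets. These were 1437723_s_at (0.77, adjusted p = 0.0439), 1415693_at (1.02, adjusted p = 0.0115) and 1433563_s_at (1.20, adjusted p = 0.0299), while the fourth, 1423082_at, gave 1.25 (adjusted p = 0.0981). The brightest probe set of Sel1l gave the smallest of its 4 differences, 0.67, beside 1.58, 1.34 and 1.53 for the dimmer 1425187_at, 1425188_s_at and 1430692_a_at (adjusted p = 0.0719, 0.0894 and 0.169). Selenos probe sets spread from 0.28 for 1435735_x_at to 1.34 for 1452095_a_at (adjusted p = 0.819 and 0.0799). Syvn1 gave 0.42 on 1428070_at, Derl2 0.46 on 1435101_at, Herpud1 1.02 on 1448185_at and Edem1 0.28 on 1424065_at. In soleus 20 of 23 were positive, between -0.25 and 0.92 with a median of 0.38, 4 had no overlap against 5.5% of all probe sets, and 0 passed, beside 0.0221% of all probe sets.

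**Figure D3:**
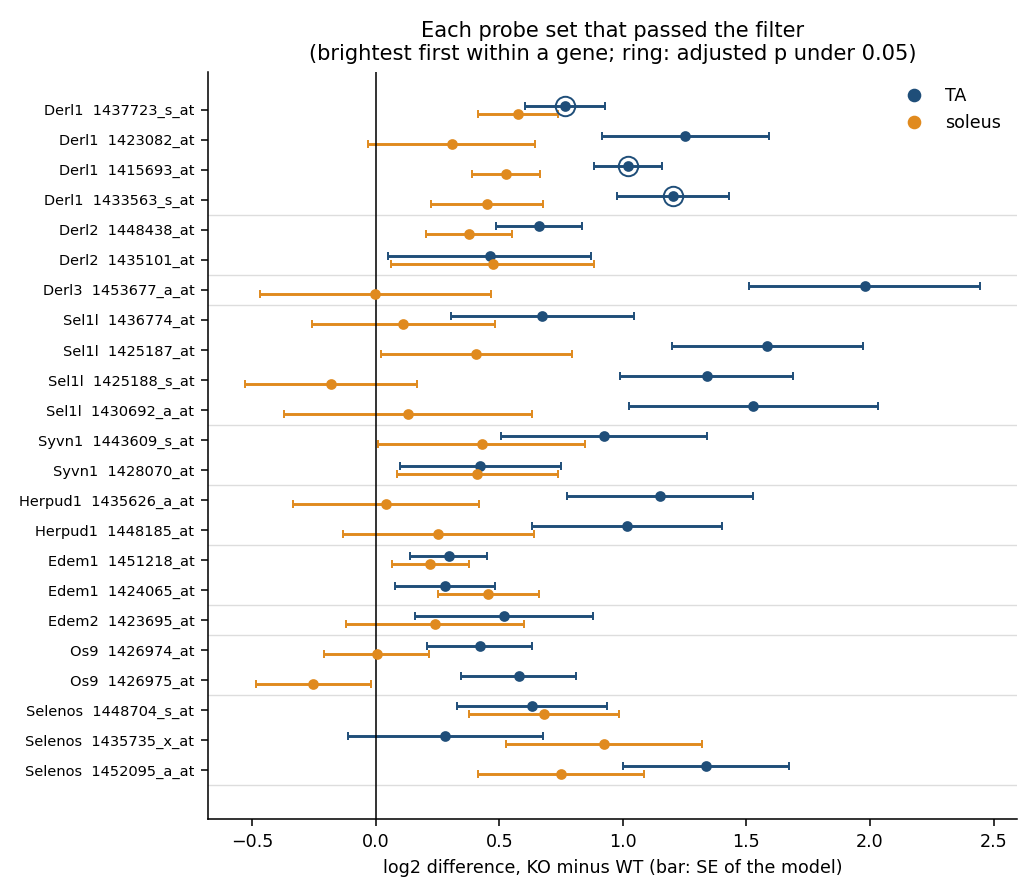
Log2 difference, KO minus WT, of each of the 23 tested probe sets in TA (blue) and soleus (orange), with the SE of the model as the bar and a ring where the adjusted p over all probe sets was under 0.05. Every TA point lies right of 0, from 0.28 to 1.98, and the 3 rings are on Derl1.

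The mean over the members also varied between the arrays of a group. With each gene centred on its own mean, the mean of the 10 genes was 0.25, 0.78 and 0.43 in KO TA replicates 1, 2 and 3, against -0.36, -0.28 and -0.30 in WT TA. In soleus it was -0.28, -0.04 and 0.47 in KO and -0.27, -0.36 and -0.03 in WT. Derl3, which the filter admitted through KO TA alone, is part of this mean. Without Derl3 the mean was 0.21, 0.54 and 0.38 in KO TA, against -0.35, -0.26 and -0.28 in WT TA. In soleus the mean without Derl3 was -0.26, 0.0056 and 0.58 in KO and -0.25, -0.34 and 0.02 in WT. Within KO TA, replicate 2 was the highest array for 7 of the 10 genes. Within KO soleus, replicate 3 was the highest for 7 and replicate 1 the lowest for 9, and for Edem1 replicate 1 was the highest. In WT soleus, replicate 3 was also the highest for 7.

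**Figure D4:**
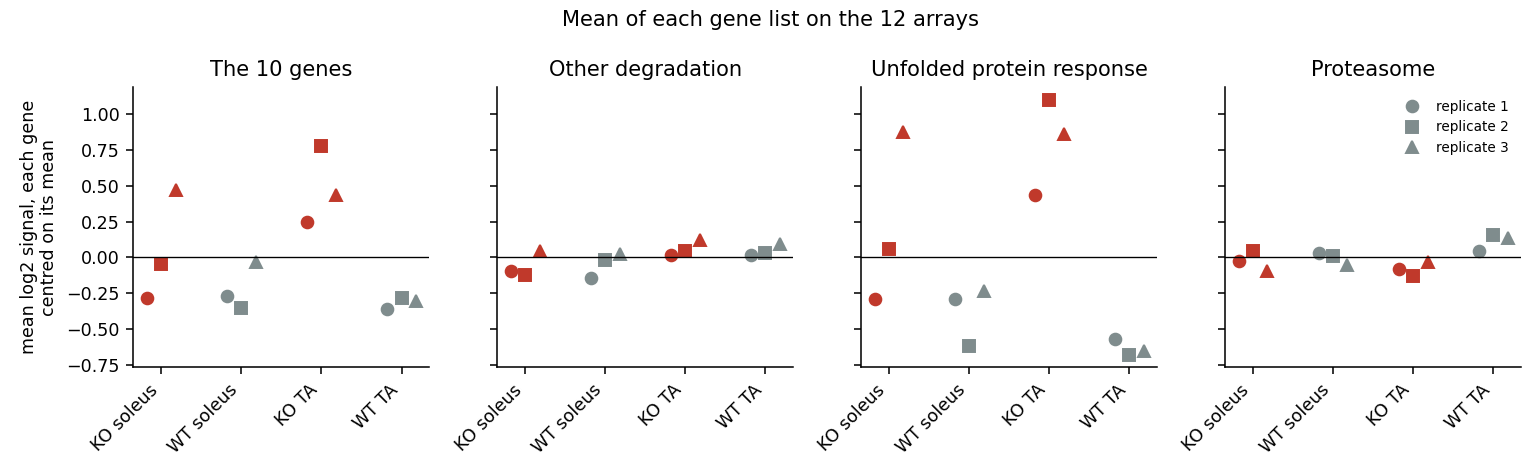
Mean log2 signal of each gene list on the 12 arrays after each gene was centred on its mean, KO in red and WT in grey, with the marker shape giving the replicate number. The 10 genes lie between 0.25 and 0.78 in KO TA and between -0.36 and -0.28 in WT TA, and KO soleus runs from -0.28 to 0.47. The 10 include Derl3, which the filter admitted through KO TA alone. Without Derl3, which is not drawn, KO TA lies between 0.21 and 0.54 and WT TA between -0.35 and -0.26.

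A wider list of 57 other degradation genes, made of lumen enzymes, further ligases and adaptors, ubiquitin-conjugating enzymes, p97 cofactors and cytosolic helpers, had 49 tested genes. None of the 49 passed limma's test in TA, where 6 had an unadjusted p under 0.05 with a higher and 6 with a lower mean in KO, beside 7.95% and 9.13% of all genes. Their median difference was -0.06, with 19 of 49 positive. With median centring it was 0.03, with 29 positive and 2 past the test. These were 1 membrane gene and 1 conjugating enzyme, both higher in KO. By role the TA medians were 0.06 for 4 lumen genes, -0.05 for 18 membrane ligases and adaptors (0.05 with median centring), -0.22 for 5 conjugating enzymes, -0.07 for 8 p97 genes (0.0058 with median centring) and 0.02 for 14 cytosolic genes. The smallest p belonged to Ube2j1, the membrane-bound conjugating enzyme of this pathway (-0.67, SE 0.16, adjusted p = 0.0545), and to Marchf6, another ER ligase (-0.38, SE 0.10, adjusted p = 0.0729), both with the lower mean in KO. In soleus none of the 49 passed, and the median was 0.0072. At an unadjusted p under 0.05, 2 were higher and 1 lower in KO, beside 4.3% and 4.47% of all genes. Ube2g2, a conjugating enzyme, had 0.45 (adjusted p = 0.481) and Herpud2, the relative of Herpud1, 0.27 (adjusted p = 0.512) in soleus. Between muscles, 4 of the 49 passed in KO, all lower in soleus, among them Sgta (-0.91) and Ubac2 (-0.54), and 7 passed in WT, 6 of them lower in soleus, among them Ubxn1 (-1.15, adjusted p = 0.00450) and Ube2j1 (-0.95, adjusted p = 0.00486). Over all genes 8.96% and 10.7% passed in these comparisons. The counts depended on the scaling: with median centring 1 passed in KO, lower in soleus, and 2 higher and 2 lower in WT, and without quantile normalization, 2 lower in KO and 2 higher and 3 lower in WT.

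The unfolded protein response genes had a larger median difference in TA than the members. Of 16 chaperones and signalling genes, 9 rose in TA and none fell, with all 16 differences positive and a median of 1.37. Over all genes, 1.42% were called higher in KO and 48.6% of differences were positive. Pdia6, a disulfide isomerase, rose by 1.78 (adjusted p = 0.0110), the lumen chaperone Calr by 1.49 (adjusted p = 0.0138), the secreted stress protein Manf by 2.54 (adjusted p = 0.0141) and the co-chaperone Sdf2l1 by 2.20 (adjusted p = 0.0155), the last a lower bound as WT TA was near background. In soleus none of the 16 passed, 6 had an unadjusted p under 0.05 and a higher mean in KO, all 16 were positive and the median was 0.46. Over all genes in soleus, 4.3% were higher in KO at that threshold, 51.1% were positive and the median was 0.0023. Pdia6 had 0.97 (adjusted p = 0.294) and Manf 1.25 (adjusted p = 0.359) there. The centred mean of the 16 genes was 0.44, 1.10 and 0.86 in KO TA replicates 1, 2 and 3, against -0.57, -0.68 and -0.66 in WT TA. Replicate 2 was the highest KO TA array, as it was for the mean of the members.

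The proteasome, where the pathway ends, had a negative median in TA. Of 31 subunits none passed limma's test in TA, with 12 lower and 2 higher in KO at an unadjusted p under 0.05, and the median was -0.23 (-0.17 with median centring). Over all genes 9.13% were lower and 7.95% higher at that threshold, and without quantile normalization 1 subunit passed, lower in KO. Psmc3 had -0.59 (SE 0.14, adjusted p = 0.0547) and Psmc5 -0.47 (SE 0.12, adjusted p = 0.0640), both ATPases of the cap. In soleus none passed, with 4 higher and 2 lower at an unadjusted p under 0.05, beside 4.3% and 4.47% of all genes, and the median was -0.03.

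**Figure D5:**
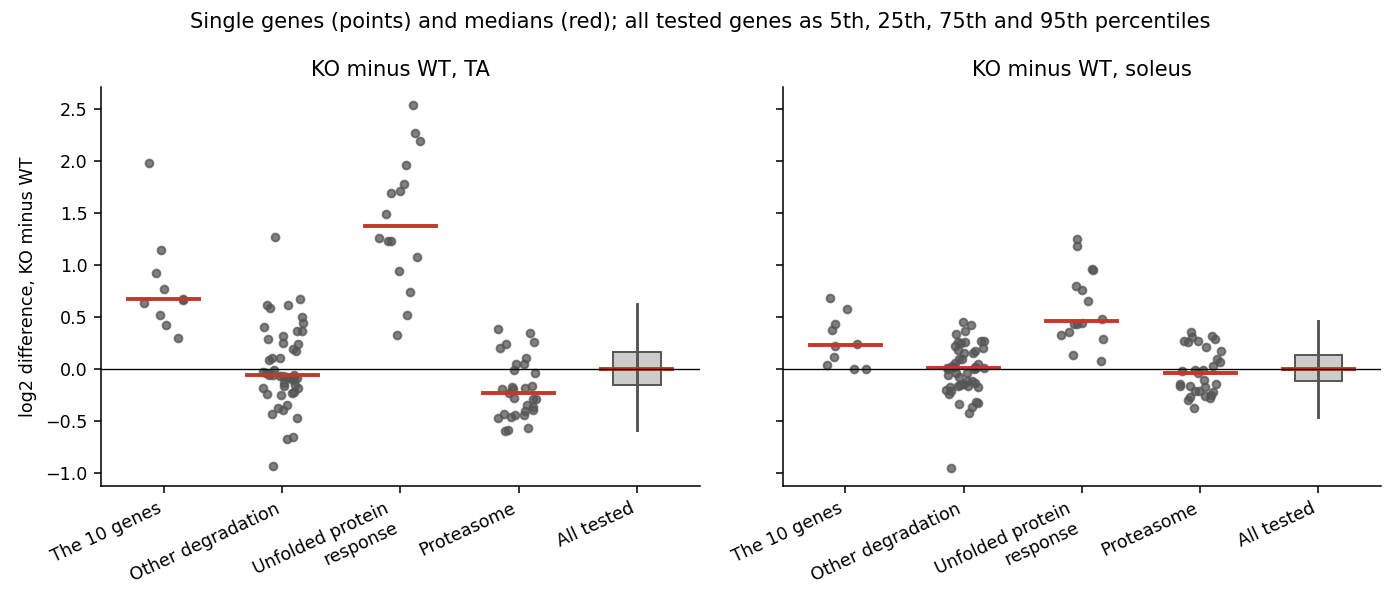
Log2 difference, KO minus WT, of single genes (points) with the list median (red) in TA and soleus, beside all tested genes drawn as a box from the 25th to the 75th and a line from the 5th to the 95th percentile. In TA the medians are 0.67 for the 10 genes, -0.06 for the other degradation genes (0.03 with median centring), 1.37 for the unfolded protein response and -0.23 for the proteasome.

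Markers of other cells and fibre types were read beside the TA result, since in whole muscle fewer cells of a type and less RNA per cell cannot be told apart. All 8 slow-fibre markers had a positive TA difference with a median of 1.35 and 0 past the test, and their summed signal was 4426.2 to 7025.4 in KO TA and 1402.8 to 3874.0 in WT TA. Of the 8, 4 had an unadjusted p under 0.05 and a higher mean in KO, beside 7.95% of all genes. On the table as deposited, and also with median centring, 1 of the 8 passed the test, higher in KO. None of the 8 was near background in any group. Of 9 fast-fibre markers 7 had a negative TA difference, with a median of -0.13 and 0 past the test. Their summed signal was 438331.8 to 483397.2 in KO TA and 494672.3 to 511646.1 in WT TA. All 4 smooth-muscle markers were negative with a median of -0.29 and 0 past the test, and 1 was near background in KO TA. That sum was 3414.9 to 5317.2 in KO TA and 3781.3 to 6733.8 in WT TA. For B and plasma cells, which are rich in ER, 5 of 6 markers had a probe set and their summed signal was 186.3 to 372.8 in KO TA and 1622.8 to 2206.7 in WT TA. Jchain, Cd79a and Mzb1 were near background in all 4 groups. Of the 2 tested markers of that list, Ighm, which makes up most of the WT TA sum, was lower in KO TA (-3.51, adjusted p = 0.00876), and Sdc1 differed by 0.03 (adjusted p = 0.982). For fibroblasts all 5 markers were positive with a median of 0.20 and 0 past the test, and the sum was 43051 to 61886.7 in KO TA and 44796.3 to 50189.9 in WT TA. Of 4 tendon markers 1 passed, Thbs4, lower in KO TA (-1.58, adjusted p = 0.0256), and the sum was 1510.4 to 3853.9 in KO TA and 3877.2 to 4760.3 in WT TA, with Mkx near background in both. The 3 tested of 5 adipocyte markers had positive differences between 0.22 for Cidec and 1.56 for Adipoq with 0 past the test, and the sum of 4 was 15947.9 to 20271.3 in KO TA and 11089.9 to 17230.8 in WT TA, with Cidec and Lep near background in both. The part of fibre type and of these cells in the members' result was not tested.

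Over the 8555 other genes with a mean above log2 5, the 5 whose centred profile over the 12 arrays lay nearest to that of the members were Lrrc59, Atf4, Dnajb11, Nfxl1 and Mif, by root mean square distance. Lrrc59, an ER membrane protein, was nearest, at 0.121. Since these genes were chosen for a profile like that of the members, their differences are given as a description. The members' profile included Derl3, which the filter admitted through KO TA alone. Lrrc59 differed by 0.84 in TA and by 0.17 in soleus. Atf4, the transcription factor named above, lay at 0.126 with 0.74 in TA, and Dnajb11, an ER co-chaperone, at 0.162 with 0.81. Nfxl1 and Mif lay at 0.163 and 0.164.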

How the data were processed

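The deposited table holds log2 signals of 45101 probe sets on 12 Affymetrix arrays, which the authors made from biotin-labelled cRNA of Trizol-extracted total RNA, per the labels' protocols. MAS5 is the tool listed in the submitters' processing notes, with neither version nor role, and the sources used here do not say how the log2 values were summarised. The 2% trimmed means of the arrays differed by up to 1.109 times, so quantile normalization was applied. The filter kept probe sets above their array's 40th percentile (log2 2.758) on at least 3 arrays, of which 22648 had 1 symbol; symbols came from GEO's platform annotation (34945 probe sets with 1, 932 with several, 9160 with none, 64 controls). The brightest probe set read each gene. Tests used R 4.3.3 and limma 3.58.1, over 4 group means with a variance trend, 2-sided, Benjamini-Hochberg adjusted, threshold 0.05; an exact permutation test of 3 against 3 cannot go below p = 0.1. The code was tested on simulated data. The number of arrays limits precision.

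The members and lists were chosen with earlier results of these data known. All 10 members are named, with up to 4 genes past the test per list and comparison, or 2 of smallest p; genes named as losing or gaining a call in an alternative, and Jchain, Cd79a, Mzb1, Ighm, Sdc1, Thbs4, Mkx, Cidec, Adipoq and Lep, were chosen after their values were seen. Deviations of equally numbered arrays from their group means correlated at 0.345, 0.159 and 0.558 between KO and WT TA, at 0.489, 0.432 and 0.59 between the KO muscles and at 0.351, 0.14 and 0.594 between the WT muscles. These pass the limit of 0.1, and KO and WT soleus, at 0.427, 0.092 and 0.612, do not. The pairing is read from these values, not from the labels. The alternatives were scaling, filter, pseudocount, probe set choice, variance model, array weights, replicate block and left-out arrays.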

Additional observations from a re-analysis of the deposited data

How the results depend on the processing

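All 10 members kept a positive KO minus WT difference in TA under every alternative that tested them (Derl3 did not pass the filter on a mean log2 above 5). The number past the test there, 1, was 2 on the table as deposited (Derl1, Derl2) and 3 with median centring (Derl1, Derl2, Derl3). It was 2 with the mean of probe sets (Derl1, Sel1l). Array weights and the replicate block each gave 2, Derl1 and Derl3. It was 0 without a filter, without the 4 arrays numbered 3 and on TA arrays alone. The brightest probe set lacking a _s_at or _x_at suffix also gave 0, an alternative chosen after seeing the data. Derl3 passed the filter through KO TA alone and lay at the floor in the other 3 groups, so its calls in any comparison are no support. When 1 array was left out, the number past the test in TA was 0 to 1. The 1 was Derl3, without KO TA replicate 1 or without KO TA replicate 2. Derl1 passed with no TA array left out singly. In soleus it was 1 with array weights (Derl1, 0.79, adjusted p = 0.0313) and otherwise 0. For the difference of effects it was 0 to 1 when 1 array was left out, the 1 being Derl3 without KO TA replicate 2, a gene at the floor in the other 3 groups, so that this call is no support. Between KO muscles it was 0 with a pseudocount of 16 and on KO arrays alone, 2 with array weights, 2 with the replicate block, and 0 to 2 when 1 array was left out. Over the alternatives other than leaving out 1 array, Herpud1 passed in 3 and Sel1l in 1 (adjusted p = 0.015). Derl3 lost its call in 3 of them. Between WT muscles the number past the test was 1 with the suffix alternative (Selenos, 1.21, adjusted p = 0.0474). The block changed no other member's call. The cause of these moves was not tested.

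Over all genes the replicate block gave 913 calls in TA against 368 without it, 2194 against 1165 between KO muscles and 2369 against 1392 between WT muscles. The TA count was 56 without the arrays numbered 3, 4 on TA arrays alone, and 85 to 398 when 1 array was left out. Array weights gave 360 calls in soleus against 4, where 1 array left out gave 3 to 30 and the other settings 0 to 5; for the difference of effects array weights gave 10 against 5, and other settings 1 to 20. Array weights gave 2800 between WT muscles. The arrays of 1 genotype alone gave 631 calls between KO muscles and 706 between WT muscles, and with 1 array left out these counts were 585 to 1072 and 699 to 1281.

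Signs turned for values that had not passed. In soleus these were Derl3 on the deposited table (0.0113), Os9 with the mean of probe sets (-0.12), Herpud1 with array weights (-0.0755) and, without the arrays numbered 3, Sel1l (-0.0244), Herpud1 (-0.30) and Edem2 (-0.0375). With 1 array left out, soleus differences were -0.0074 to 0.0013 for Derl3, -0.33 to 0.41 for Sel1l, -0.14 to 0.72 for Syvn1, -0.34 to 0.46 for Herpud1, -0.15 to 0.51 for Edem2 and -0.0604 to 0.0802 for Os9. The difference of effects turned for Selenos with median centring (0.0359), without the arrays numbered 3 (0.0541) and with the suffix alternative (0.585), for Edem1 with the mean of probe sets (-0.0501) and for Derl1 with array weights (-0.0205); with 1 array left out it was -0.36 to 0.21 for Selenos, -0.0451 to 0.24 for Edem1 and -0.0252 to 0.67 for Edem2. Between KO muscles, Derl1 turned with the mean of probe sets (-0.44), without the arrays numbered 3 (-0.0583) and with the suffix alternative (-1.06), Derl2 with the mean of probe sets (0.10) and Selenos without the arrays numbered 3 (-0.0191); with 1 array left out the ranges were -0.0201 to 0.21 for Derl1, -0.20 to 0.0637 for Derl2 and -0.0076 to 0.28 for Edem1. Between WT muscles, Derl3 (-0.0467), Syvn1 (0.0842) and Edem2 (0.0324) turned on the deposited table, Syvn1 (0.16), Herpud1 (0.0683) and Edem2 (0.11) with median centring, Sel1l with array weights (-0.0785) and without the arrays numbered 3 (-0.16), and Derl1 with the suffix alternative (-0.12); with 1 array left out the ranges were -0.22 to 0.0169 for Syvn1, -0.29 to 0.21 for Sel1l and -0.0692 to 0.36 for Os9. The floor of the table limits Derl3 and the dimmest probe sets.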

Other observations

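A few of the other degradation genes had higher means in KO TA beside members that did not pass. They were chosen after their values were seen, and limma's test called none of them after quantile normalization. With median centring the test called 1 conjugating enzyme, Ube2g2, and 1 membrane gene, both higher in KO, beside 293 of all genes. Uggt1, the lumen sensor that tags misfolded glycoproteins with glucose, differed by 1.27 (SE 0.36, adjusted p = 0.0931) in TA. Ube2g2, a ubiquitin-conjugating enzyme of the pathway, differed by 0.67 (SE 0.18, adjusted p = 0.0756), and Rnf185, an ER ubiquitin ligase, by 0.61 (adjusted p = 0.0805). In soleus the same genes differed by 0.42 for Uggt1, 0.45 for Ube2g2 and 0.16 for Rnf185, with adjusted p of 0.481 to 0.945.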
